A study of Mus musculus with 6 samples.

Results

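The expression of 9 genes for matricellular and matrix proteins was followed in single cells of mouse esophageal organoids. The genes were Thbs1, Tnc, Tgfbi, Ccn1, Ccn2, Mgp, Fn1, Col12a1 and Col4a4, 9 of the 32285 genes in the deposited tables. They had been selected from expression values of these same cells, as genes high in basal cells, so their enrichment in such cells is described here without a test. Esophageal epithelial cells of C57BL6 mice that were positive for integrin-b1, a surface receptor of basal cells, and that excluded the dead-cell stain DAPI, were sorted by Cyto-ID, a dye for autophagic vesicles. The Cyto-ID Low and Cyto-ID High fractions each founded organoids that were cultured for 15 days (Low and High organoids from here on), and each group has 3 single-cell libraries, labelled F2, M3 and F6. All libraries shared the same culture: Matrigel, EGF, Noggin/R-Spondin-conditioned medium and Y27632, a kinase inhibitor. The sort therefore describes the founder cells, not the cells that were sequenced, and the labels do not say whether same-labelled libraries came from the same animals or whether animals were pooled. If the libraries are not from separate animals, p-values measure only the spread between these libraries, which may be technical.

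Basal keratinocytes sit on the basement membrane and hold to it through integrins. Matricellular proteins are secreted into the matrix and act mainly on signalling and adhesion rather than as structural elements. Several of the genes are classical targets of TGF-beta or of the mechanosensitive YAP-TEAD and SRF regulators, and in many tissues fibroblasts are their main source.

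Of 26808 barcodes, 25154 had at least 500 detected genes and were kept. Total UMIs (unique molecular identifiers, 1 per captured RNA molecule) ranged from 8457489 to 48957523 per library. A kept cell was called Krt13-low where its deposited Krt13 value was below 3. Krt13 is a keratin of the differentiating suprabasal layers, and the deposited value is the natural log of 1 plus UMIs per 10000. This gave 15202 Krt13-low cells, between 1500 and 3254 per library, and 9952 Krt13-high cells. The boundary is a cut through a range: 1759 cells lay within 0.5 below it and 1668 within 0.5 above it. Krt13-low cells made up 56.4% ± 1.65 (SD, n = 3) of kept cells in Low organoids and 64.3% ± 12.8 (SD, n = 3) in High organoids. The difference of 7.94 percentage points was smaller than the SD of the High libraries (two-sided exact permutation test p = 0.40, with 0.10 the smallest value that 3 against 3 libraries can give). Median UMIs per Krt13-low cell ran from 1861 to 9645, and the deepest and shallowest medians were both in High organoids.

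Markers of basal cells and of cell types outside the epithelium were measured in Krt13-low cells. The 8 basal markers (Krt5, Krt14, Krt15, Trp63, Itgb1, Itgb4, Itga6 and Col17a1) summed to between 10519 and 23552 CPM (a gene's UMIs scaled to 1000000 per cell, averaged over cells) in Krt13-low cells, with none at 0 in any library. The 9 fibroblast markers summed to between 3.47 and 7.61 CPM in Low organoids and between 10.03 and 16.4 CPM in High organoids. Vim made up most of this in 5 libraries, and in High F6 it was 4.95 of 12.1 CPM, with Dcn at 2.97 CPM and Col1a2 at 1.65 CPM. The Col1a2 UMIs of that library, 5 in all, were in 1 cell, which is described with Fn1. Col3a1 had 0 UMIs in every library, Col1a1 had 16 UMIs and Col1a2 had 5 in all libraries together. The endothelial genes Cdh5, Kdr and Emcn, the smooth muscle gene Des and the immune genes Ptprc and Cd3e also had 0 UMIs. Other genes of those lists were present: the contractile actin Acta2 had 1423 UMIs and the lysosomal gene Cd68 had 841, each in all 6 libraries, Tagln had 190 and Pecam1 had 59. The 5 smooth muscle markers summed to between 7.30 and 23.1 CPM, the 6 immune markers to between 6.06 and 15.1 CPM and the 5 endothelial markers to at most 1.08 CPM per library. The sums of the basal markers were far above these, and the cells with most Fn1, which differ in some of these genes, are described with that gene. The sums compare basal markers with those other types only. They cannot tell basal from suprabasal cells, since no basal marker sum of Krt13-high cells is given. Suprabasal markers of the Krt13-low cells are given with the comparison of the sorts.

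All 9 genes are protein-coding on GRCm38, the build named in the submitters' processing notes, and positions are from GENCODE M21. Thbs1 lies at chr2:118111876-118127133, Tnc at chr4:63959785-64047015 and Tgfbi at chr13:56609523-56639562. Ccn1 lies at chr3:145646976-145649981, Ccn2 at chr10:24595442-24598683 and Mgp at chr6:136872435-136875823. Fn1 lies at chr1:71585520-71653200, Col4a4 at chr1:82448423-82586849 and Col12a1 at chr9:79598991-79718831. Thbs1, Tnc, Col12a1, Ccn2 and Fn1 each overlap 1 annotated gene on the opposite strand. UMIs were counted per whole gene, so the values carry no information on isoforms. The libraries read RNA near its 3′ end, and levels are compared between libraries and cells for 1 gene at a time, not between genes.

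RefSeq promoter windows of 250 bases before to 50 after the start (GRCm38.p6) were at hand for 4 members, Tnc, Tgfbi, Col4a4 and Ccn1, with 2 windows for Tnc. The last 120 bases before the start of Ccn1 and of Tgfbi are shown, since this is the only pair of members with windows whose joint detection could be read at equal depth. Capitals mark motif matches. The Ccn1 sequence is chr3:145649986-145650105, minus strand, and the Tgfbi sequence chr13:56609466-56609585, plus strand.
Ccn1: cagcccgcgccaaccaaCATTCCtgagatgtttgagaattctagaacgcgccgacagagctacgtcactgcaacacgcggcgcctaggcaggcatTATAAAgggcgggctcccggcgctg
Tgfbi: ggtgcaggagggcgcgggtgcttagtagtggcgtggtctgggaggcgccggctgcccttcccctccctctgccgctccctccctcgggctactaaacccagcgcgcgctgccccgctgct
The TEAD motif GGAATG was found in the Ccn1 window only, in reverse orientation from position -103 counted from the start, and 14.7% of all 32851 windows held it on either strand. TATAAA lay at position -25 of Ccn1 and at 1 site further upstream of Tnc, which its overlapping windows share, and 13.6% of all windows held it. The AP-1 motif TGANTCA and the CArG box, the site of SRF, were in none of the 5 windows of these 4 members, and were in 7.81% and 1.63% of all windows. The motifs do not overlap one another here, and a match describes letters, not binding.

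Median levels of the members over the 6 libraries were graded along Krt13, even within Krt13-low cells. Thbs1, which encodes the integrin- and CD47-binding thrombospondin-1, had a median over the 6 libraries of 182 CPM in cells with no Krt13, 69.3 CPM in cells with Krt13 values of 2 to 3, 18.7 CPM from 3 to 4, and 3.08 CPM at 5 or more. The fall was already under way well below the boundary. Tgfbi, which encodes a secreted integrin-binding protein induced by TGF-beta, went from 508 CPM without Krt13 to 299 CPM from 2 to 3, 129 CPM from 3 to 4 and 29.6 CPM at 5 or more. Col12a1, the fibril-associated collagen XII, went from 163 to 107 CPM just inside the boundary and 40.5 CPM just outside it, with 3.44 CPM in the highest class. These classes share libraries and cells with the choice of the genes and are given as a description.

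The medians of the remaining members had the same order of classes from no Krt13 to 3 to 4, but single libraries did not always. Fn1 was at 8.20 CPM with no Krt13 and 9.02 CPM above 0 to 2 in Low F2. In High F6 it was at 1.75, 2.17 and 9.55 CPM from no Krt13 to 2 to 3. Mgp was at 81.8 CPM with no Krt13 and 92.7 CPM above 0 to 2 in Low F6. Between the classes just inside and just outside the boundary, median levels were 3.67 and 2.21 CPM for Tnc (tenascin-C, an adhesion-modulating glycoprotein) and 11.3 and 5.82 CPM for Col4a4 (a chain of the specialised alpha3-alpha4-alpha5 basement membrane collagen IV). They were 13.0 and 3.76 CPM for Mgp (matrix Gla protein, an inhibitor of calcification) and 7.40 and 1.67 CPM for Ccn2 (connective tissue growth factor). Fn1, fibronectin, was at 1.83 and 0 CPM. Ccn1, the cysteine-rich angiogenic inducer CYR61, had medians of 12.0, 11.4 and 12.1 CPM in the 3 classes above the boundary, and Col4a4 had 5.82, 4.35 and 5.34 CPM there.

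**Figure D1:**
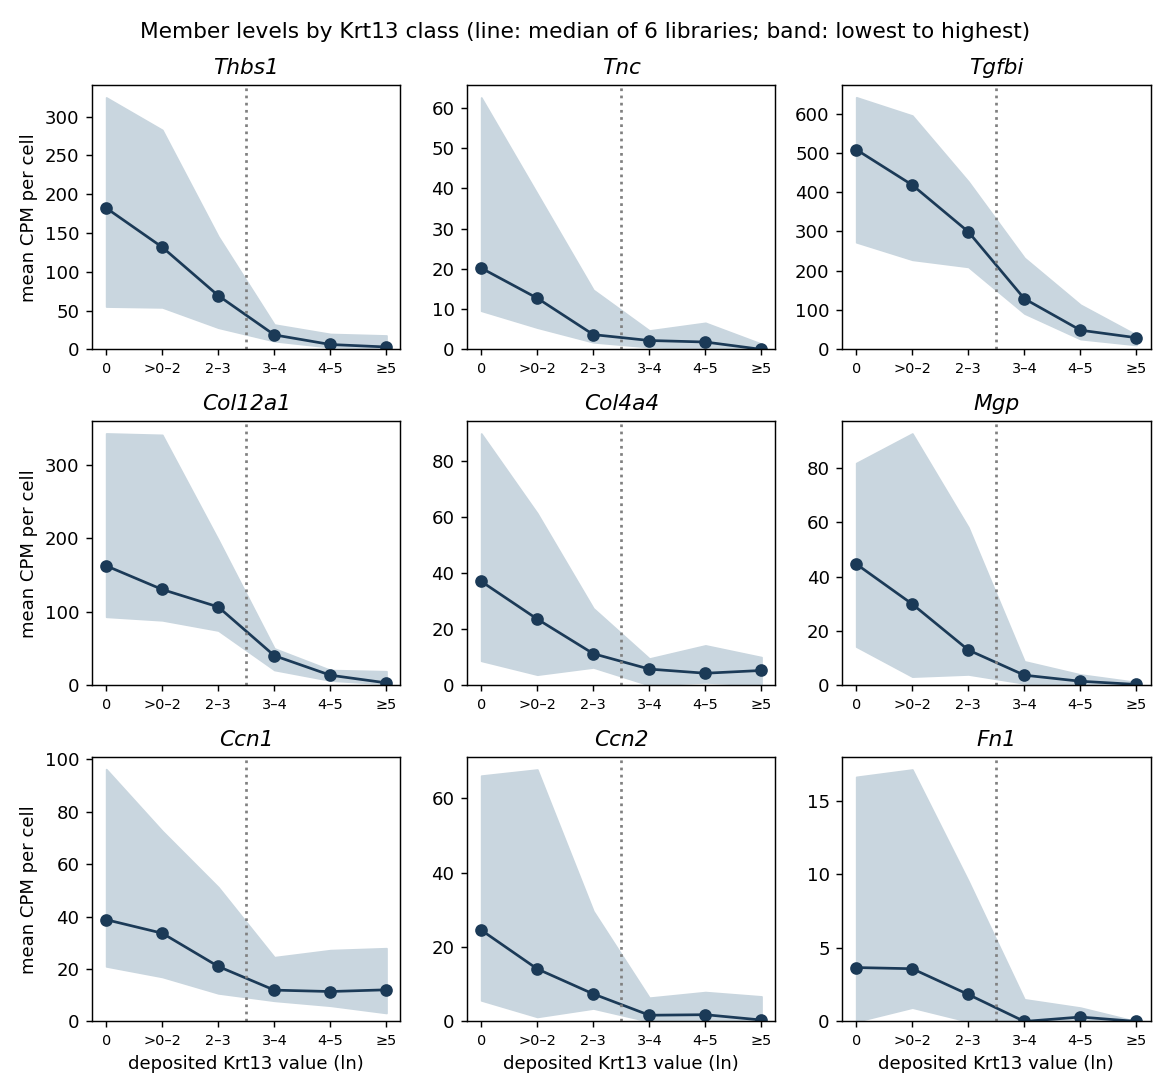
Mean CPM per cell of each gene (y axis) in 6 classes of the deposited Krt13 value (x axis, natural log), as the median (line) and the lowest to highest value (band) of 6 libraries, with the boundary of 3 dotted. Thbs1 goes from 182 to 3.08 CPM and Tgfbi from 508 to 29.6 CPM, whereas Ccn1 (12.0 and 12.1 CPM) and Col4a4 (5.82 and 5.34 CPM) differ little between the first and last class above the boundary.

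Set as the ratio of Krt13-low to Krt13-high cells, Thbs1 was 6.35 to 35.9 times higher across the 6 libraries, Tnc 7.96 to 17.1 times and Col12a1 4.62 to 13.0 times. Tgfbi was 3.04 to 10.3 times higher. Ccn1 was 1.64 to 3.89 times higher. Col4a4 was 1.52 times higher in High F6 and 3.74 to 15.0 times in the others. Some of these ratios rest on few UMIs in Krt13-high cells. Tnc had 4 there in High M3 (17.1 times) and 4 in High F6, Col4a4 had 5 in High M3 (15.0 times) and Thbs1 had 18 in Low F6 (35.9 times). Ccn2 had 0 UMIs in Krt13-high cells of High F6, which allows up to 3, and 33 UMIs in its Krt13-low cells. Fn1 had 0 UMIs in the Krt13-high cells of 3 libraries.

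Levels were then compared between organoids from Low and High founders within Krt13-low cells. For 8 of the 9 members the group mean was lower in High organoids, by ratios that differed from gene to gene, and none passed the test across all genes. The test was limma on log2(CPM + 1), scaled by TMM factors, over the 11730 genes that reached 1 CPM in 3 or more libraries, with Benjamini-Hochberg adjustment. On that scale the log2 difference was below 0 for 8 of 9 members and for 5899 of the 11730 genes. Without TMM factors it was below 0 for 7932 of the 11730 genes. The test called 0 of 9 members at an adjusted p under 0.05, where 27 genes or 0.23% of all genes were called, all 27 higher in High organoids. A total of 825 genes had an unadjusted p under 0.05. The 27 rest on particular libraries: the count was 6 without Low F6, 7 without High F6 and 11 without High F2. When same-labelled libraries were blocked, 79 genes or 0.673% were called, and again 0 of 9 members.

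Among the integrin-binding matricellular genes, Tgfbi measured 569, 461 and 433 CPM in Low F2, M3 and F6 and 464, 250 and 270 CPM in the High libraries of the same labels. High was lower in every same-labelled pair, but its F2 library was above 2 of the Low libraries, so the groups overlapped. The group means were 487 ± 71.9 and 328 ± 118 CPM (SD, n = 3), a log2 difference of -0.46 ± 0.26 (SE; limma adjusted p = 0.75). It was -0.30 without High M3.

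Thbs1 was at 266, 87.8 and 177 CPM in Low F2, M3 and F6 and at 196, 45.8 and 120 CPM in High organoids. Each High library lay below its same-labelled partner, by 1.36, 1.92 and 1.48 times, while the spread between labels was wider than that between sorts. The log2 difference was -0.49 ± 0.52 (SE; limma adjusted p = 0.87). It was 0.082 without High M3, -0.16 without Low F2, -0.93 without Low M3 and -0.89 without High F2.

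Tnc was lower in High organoids in each pair on this scale, by 1.07, 1.13 and 1.35 times, at 40.0 and 37.4 CPM in the F2 libraries, 7.77 and 6.90 CPM in M3 and 16.9 and 12.5 CPM in F6, Low first. Its log2 difference was -0.08 ± 0.61 (SE; limma adjusted p = 0.99), and it changed sign without Low F2 (0.46) and without High M3 (0.43). It was -0.62 without Low M3, -0.64 without High F2 and -0.014 without High F6.

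The CCN proteins are matricellular ligands of integrins and are widely used as readouts of YAP activity. Ccn1 was at 75.2, 23.7 and 43.3 CPM in Low F2, M3 and F6 and at 44.4, 17.4 and 20.4 CPM in High organoids. Ccn2 was at 59.1, 9.03 and 29.0 CPM in Low organoids and at 21.4, 4.84 and 6.63 CPM in High organoids. For both genes the groups overlapped, because the M3 library of Low was below the F2 library of High. The log2 differences were -0.59 ± 0.42 for Ccn1 and -1.25 ± 0.63 for Ccn2 (SE; limma adjusted p = 0.80 and 0.72), and the block gave an adjusted p of 0.073 for Ccn2. Single libraries moved both: without Low F2 they were -0.22 and -0.69, and without Low M3 -1.01 and -1.95. Ccn1 was also -0.34 without High M3 and -0.93 without High F2.

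The collagen genes had the same direction. Col12a1 measured 246, 123 and 310 CPM in Low F2, M3 and F6 and 145, 90.2 and 110 CPM in High organoids, a log2 difference of -0.74 ± 0.35 (SE; limma adjusted p = 0.72), which was -0.43 without Low F6 and -1.13 without Low M3. Col4a4 measured 62.8, 18.6 and 36.5 CPM in Low organoids and 34.0, 7.04 and 8.04 CPM in High organoids. The Col4a4 ratio within a pair was widest for F6, at 4.54, and narrowest for F2, at 1.85. Its log2 difference was -1.26 ± 0.55 (SE; limma adjusted p = 0.70, and 0.065 with the block).

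Mgp, which needs gamma-carboxylation by a vitamin K-dependent enzyme for its activity, was at 38.1, 33.1 and 79.3 CPM in Low F2, M3 and F6 and at 15.2, 31.8 and 12.3 CPM in High organoids. On this scale the groups did not overlap, by a margin of 33.1 against 31.8 CPM, and they did overlap after TMM scaling. The log2 difference was -1.16 ± 0.41 (SE; limma adjusted p = 0.62), with an unadjusted p of 0.020 that was the smallest among the members. The difference was -0.74 without Low F6.

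Fn1 went the other way in the F2 and M3 pairs. It was at 6.91, 0.443 and 4.00 CPM in Low F2, M3 and F6 and at 14.2, 1.88 and 3.26 CPM in High organoids. Its log2 difference of 0.67 ± 0.68 (SE, limma adjusted p = 0.86) was about as large as its error without the block. With the block the SE was 0.27 (limma adjusted p = 0.33). The difference was -0.024 without Low M3, 0.020 without High F2, 1.16 without Low F2 and 1.17 without High M3.

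**Figure D2:**
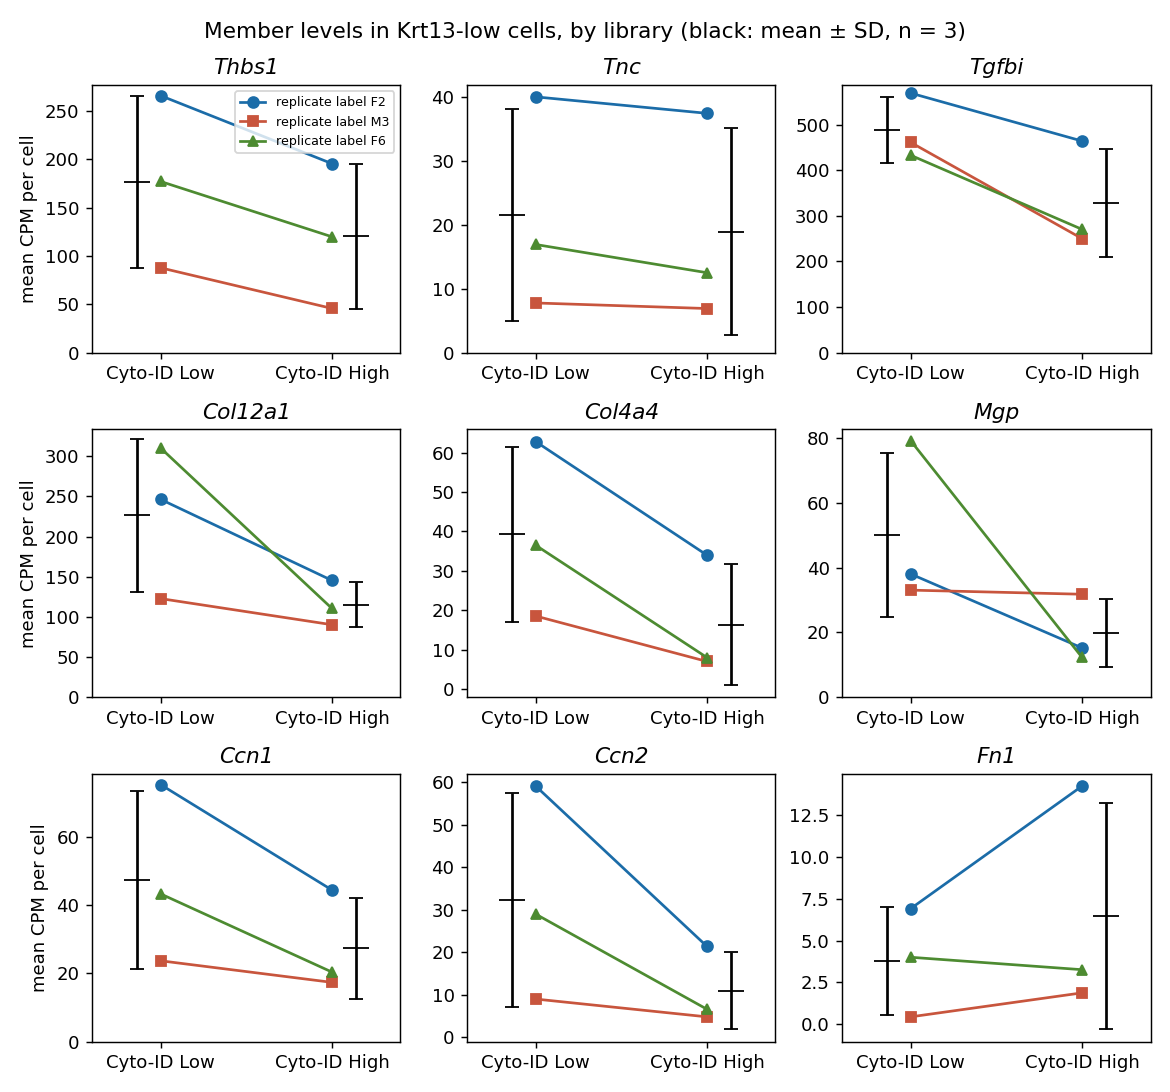
Mean CPM per Krt13-low cell of each gene (y axis, from about 0) in each library, with lines joining Low and High libraries of the same replicate label and black bars for the mean ± SD (n = 3). Lines slope down for 8 genes and up for Fn1 in F2 (6.91 to 14.2 CPM) and M3. The distance between the highest and lowest label exceeds every slope in both groups for Thbs1 and Tnc. It does so in Low organoids only for Ccn1, Ccn2 and Col4a4, and in High organoids only for Tgfbi and Fn1.

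Same-labelled libraries ranked alike for many members. The F2 library was the highest of its group, in both groups, for 7 of 9 members, with Col12a1 and Mgp as the exceptions. The M3 library was the lowest in both groups for 7 of 9, with Tgfbi and Mgp as the exceptions. The share of all genes with these ranks was not counted. Over 9066 genes, distances from the group mean also went together within the labels F2 and M3, with correlations of 0.71 and 0.61. For F6 the correlation was 0.14, below the 0.23 of Low F2 with High F6, which have unlike labels. These ranks are therefore not shown to be particular to the members. On TMM-scaled CPM, 6 of 9 members were lower in High organoids in all 3 same-labelled pairs, where 20.1% of all genes tested were. On plain CPM the count was 8 of 9, where 33.6% of all genes were: TMM scaling raised the median log2 difference of all genes by 0.14. No member was lower without overlap after TMM scaling (0 of 9, where 6.08% of all genes were). The median log2 difference was -0.59 over the members and -0.0022 over all genes tested. At an unadjusted p under 0.05, 2 of 9 members (Mgp and Col4a4) were lower in High organoids, where 2.76% of all genes were. With the block, 7 of 9 were lower at that level, where 6.66% of all genes were. Fn1 was higher at that level with the block (limma unadjusted p = 0.039), which 1659 of 11730 genes reached in either direction. The members were selected with results of these libraries known, so these counts describe them and support no statement about the list.

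**Figure D3:**
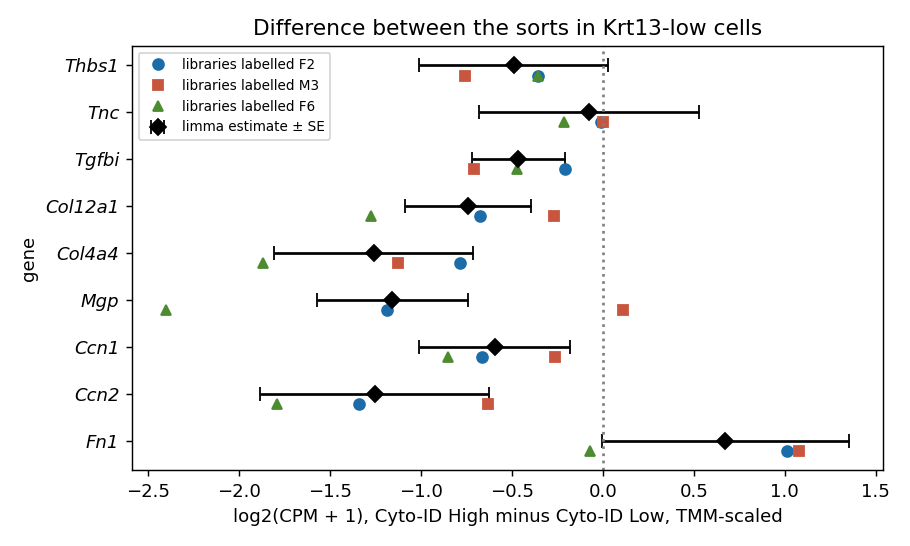
Difference in log2(CPM + 1) between High and Low Krt13-low cells after TMM scaling (x axis) for each gene (y axis), as the limma estimate ± SE (black) and as the difference within each same-labelled pair (coloured). Estimates run from -1.26 for Col4a4 to 0.67 for Fn1, and Mgp has pairs on either side of 0.

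Markers of other cell states were measured in the same Krt13-low cells. The 7 suprabasal markers summed to between 436 and 594 CPM in Low organoids and between 949 and 1410 CPM in High organoids, and 2 of the 7, Krtdap and Sprr1b, rose in the same test (log2 differences 5.06 ± 0.59 and 3.13 ± 0.46 (SE), limma adjusted p = 0.011 and 0.033). Krtdap encodes a secreted keratinocyte differentiation protein, and without it the other 6 summed to between 429 and 579 CPM in Low organoids and between 416 and 614 CPM in High organoids. Most of that sum was Krt13, at 412 ± 83.6 and 370 ± 110 CPM (SD, n = 3), whose level the choice of cells bounds. The 5 markers without Krtdap and Krt13 summed to between 72.2 and 85.8 CPM in Low organoids and between 130.0 and 151 CPM in High organoids. Among them the transglutaminase gene Tgm3 was at 6.33 ± 2.90 and 20.9 ± 2.38 CPM (SD, n = 3; limma adjusted p = 0.099, and 0.012 with the block). Ivl, the cornified envelope precursor involucrin, was lower in High organoids in each pair, at 37.3 and 24.2 CPM in F2, 12.6 and 11.4 CPM in M3 and 34.7 and 8.43 CPM in F6. The 10 proliferation genes summed to between 182 and 371 CPM in Low organoids and between 375 and 482 CPM in High organoids. Of these, 0 of 10 passed in limma, with or without the block. Without the block 6 of 10 were higher at an unadjusted p under 0.05, where 4.27% of all genes were. The part of these sums, or of the fibroblast marker sums, in the member differences was not tested.

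The share of Krt13-low cells in which a member was detected was compared after each cell was thinned to 1000 UMIs, which left out 242 shallower cells. Tgfbi was detected in 41.4%, 35.2% and 32.5% of thinned cells in Low F2, M3 and F6 and in 31.2%, 20.2% and 21.4% in High organoids. In Krt13-high cells at the same depth the Tgfbi share was between 3.58% and 10.7%. Mgp was detected in 2.48%, 2.42% and 6.35% in Low organoids and in 1.17%, 2.34% and 0.693% in High organoids, against at most 0.406% in Krt13-high cells. These were the 2 of 9 members whose groups did not overlap, with High lower, and 9.23% of all genes tested had shares that did so. With 1 library left out, the number of members was 5 without Low M3, where 15.9% of all genes did so, and 5 without High F2, where 24.2% did. It was 1 at 2000 UMIs, where 10.1% of all genes did so, 1 with Krt13 below 2 (8.74%), 1 with Krt13 below 4 (8.29%) and 1 without thinning (0.136%). For Tgfbi and for Mgp, p was 0.10 in a two-sided exact permutation test, the smallest possible, and 0.45 after Benjamini-Hochberg adjustment over the 9 members. The margin for Mgp was 2.42% against 2.34%, and the Wilson 95% intervals of those libraries, 1.93% to 3.03% and 1.78% to 3.08%, overlapped. Such intervals cover counting error only. Before thinning, Tgfbi UMIs were present in 85.5%, 80.6% and 56.0% of Low and 80.3%, 35.0% and 35.4% of High cells, values that also carry the depth of each library.

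The other members had overlapping shares. Col12a1 was detected in 17.7% ± 6.76 of thinned cells in Low organoids and 9.45% ± 1.84 in High organoids (SD, n = 3), and Thbs1 in 14.4% ± 6.06 and 9.79% ± 5.47. Ccn1 was detected in 4.41% ± 2.502 and 2.76% ± 1.57, Col4a4 in 3.23% ± 1.83 and 1.38% ± 1.34, Ccn2 in 2.54% ± 2.03 and 0.941% ± 0.788, and Tnc in 2.31% ± 1.74 and 1.59% ± 1.38. Fn1 was in 0.308% ± 0.261 and 0.381% ± 0.429, between 2 and 27 thinned cells per library. In Krt13-high cells, whose median depth was 2153 to 11416 UMIs before thinning, the shares of these 7 were at most 2.84% in any library. Exact permutation p-values for the 7 ran from 0.20 to 0.80.

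Joint detection was measured as the number of Krt13-low cells with both genes of a pair, divided by the number that the product of their separate shares gives. Cells were again thinned to 1000 UMIs, and a pair was read where that product was at least 5 cells in every library. Only 4 of 36 pairs were frequent enough. None of these 4 was below 1 in all 6 libraries, and the other 32 pairs were not read. Thbs1 and Col12a1 were found together in 372 cells where 244 were expected, and the ratio was above 1 in all 6 libraries, between 1.33 and 1.87. Tgfbi and Col12a1 were together in 788 cells where 591 were expected, with ratios of 1.19 to 1.55. Thbs1 and Tgfbi were together in 701 cells where 558 were expected, with ratios of 1.04 to 1.44. These 3 pairs shared cells more often than their frequencies give in every library. The genes were selected from these same cells, so this is a description, and pairs of other basal genes were not measured. Of all 36 pairs, read or not, 34 had a pooled ratio above 1. Those below 1 were Tnc with Col12a1 (34 cells where 40.4 were expected, ratio 0.842) and Col12a1 with Fn1 (4 where 7.08 were expected, ratio 0.565). Each was below 1 in 5 of 6 libraries, and neither was frequent enough to read. In cells with no proliferation UMI 3 pairs could be read, and 2 were above 1 in all 6 libraries. Tgfbi and Ccn1 were together in 212 cells where 166 were expected, but the ratio was 0.899 in Low M3. All of these genes fell along Krt13. In cells with no Krt13 UMI, by a different measure, the 3 pairs of Thbs1, Tgfbi and Col12a1 had ratios above 1 in all 6 libraries. Pooled, they were 1.19 for Thbs1 with Col12a1, 1.11 for Tgfbi with Col12a1 and 1.09 for Thbs1 with Tgfbi. Over all Krt13-low cells that measure gave 1.28, 1.14 and 1.13.

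That last measure, and those that follow for rarer genes, used all UMIs with the expected number summed over 10 depth classes per library, a choice made after the data were seen. With it 12 of 36 pairs could be read over all Krt13-low cells, 8 were above 1 in all 6 libraries and none was below 1 in all 6. The 8 included Ccn1 with each of Thbs1, Tgfbi and Col12a1. In cells with no Krt13 UMI the same measure could read 10 pairs, and 4 were above 1 in all 6, with no Ccn1 pair among them. The ratios of Tgfbi ran from 0.951 with Fn1 to 1.14 with Col12a1; its UMIs were in 85.5% and 80.3% of cells of the F2 libraries and 80.6% of Low M3, which limits how high its ratio can be, so they are not compared with those of rarer genes. The highest ratios were among the rarely detected genes, whose pairs were not read because some libraries had an expected number below 5. Tnc and Fn1 shared 120 cells where 25.6 were expected, a pooled ratio of 4.68, and 108 of the 120 were in the 2 F2 libraries. Ccn2 and Fn1 shared 71 cells where 18.2 were expected (ratio 3.89), and Tnc and Ccn2 shared 287 where 111 were expected (ratio 2.57). Of those cells 66 and 258 were in the F2 libraries. Col4a4 had ratios of 2.63 with Fn1, 2.11 with Tnc and 1.90 with Ccn2. In cells with no Krt13 UMI the ratios were lower, at 2.80 for Tnc with Fn1, 2.53 for Ccn2 with Fn1 and 2.05 for Tnc with Ccn2, and at 2.11, 1.74 and 1.52 for Col4a4 with Fn1, Tnc and Ccn2. Over all Krt13-low cells Col12a1 had ratios of 0.932 with Fn1, 1.10 with Tnc and 1.22 with Ccn2. With Tnc the direction depended on the measure, since thinned cells gave 0.842, and by neither measure could that pair be read. Thbs1 had ratios of 1.45 with Tnc and 1.46 with Ccn2, with Fn1 and with Mgp. Of these only the pair with Mgp could be read. It was above 1 in all 6 libraries, also in cells with no Krt13 UMI, where the pooled ratio was 1.30.

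**Figure D4:**
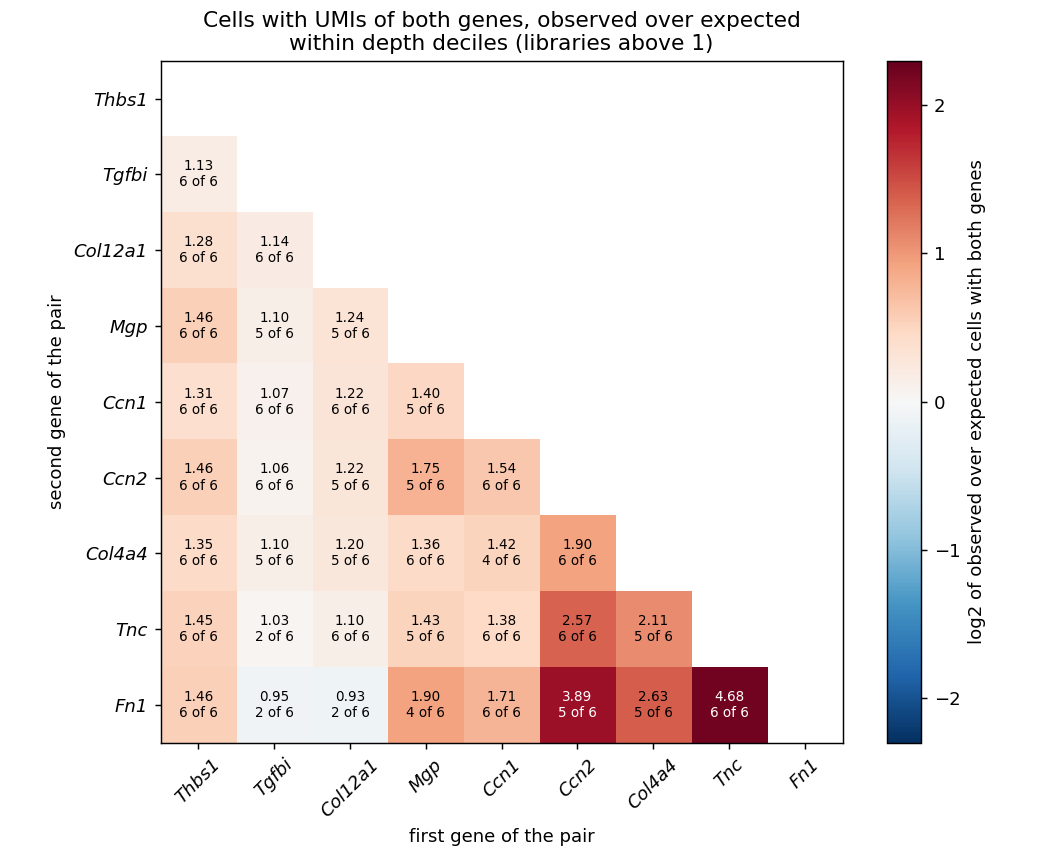
Observed over expected number of Krt13-low cells with UMIs of both genes for each of the 36 pairs (both axes list the genes), pooled over 6 libraries with all UMIs in depth classes, with the number of libraries above 1. Colour is the log2 of the ratio, which runs from 0.932 for Col12a1 with Fn1 to 4.68 for Tnc with Fn1.

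Fn1 was concentrated in few cells. Only 56 Krt13-low cells had 3 or more Fn1 UMIs, and they held 830 of the 986 Fn1 UMIs, or 84.2%. Of these cells 52 were in the F2 libraries, 10 in Low organoids and 42 in High organoids, and each other library had 1. A single cell of High F2 held 234 Fn1 UMIs, and without the cell with most Fn1 UMIs in each library the Fn1 levels were 6.33, 0.365 and 3.30 CPM in Low F2, M3 and F6 and 11.5, 0.907 and 1.94 CPM in High organoids. The log2 difference was then 0.32, against 0.67 with all cells. The Fn1 levels of the M3 and F6 libraries rest on 13 to 16 UMIs each.

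The cells with 3 or more Fn1 UMIs were chosen by that gene, and their other genes are described without a test, in the F2 libraries. CPM of these cells and of cells with no Fn1 is here summed UMIs over summed totals, so deeper cells weigh more. It differs from the average over cells used for the library levels. Tnc was at 229 CPM in these cells of Low F2 against 36.6 CPM in cells with no Fn1, and at 444 against 23.1 CPM in High F2. Ccn2 was at 247 against 51.1 CPM and at 198 against 13.1 CPM. Tgfbi, in contrast, was at 238 against 537 CPM and at 254 against 422 CPM, and Col12a1 at 64.0 against 225 CPM and at 50.7 against 126 CPM. Thbs1 was 1.34 and 4.39 times its level in cells with no Fn1. Col4a4 (0.825 and 2.98 times) and Ccn1 (0.651 and 3.00 times) lay on opposite sides in Low F2 and High F2. Mgp had 0 UMIs in the Fn1 cells of Low F2 and was 2.58 times higher in those of High F2.

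They also differed in keratins and in contractile genes. Krt8, a keratin of simple epithelia, was 25.3 times higher in the Fn1 cells of Low F2 and 12.2 times higher in those of High F2, and Krt18, its partner, 6.31 and 4.92 times. Vim was 31.1 and 21.98 times higher, and Sparc, another matricellular gene, 16.5 and 17.2 times. The smooth muscle actin Acta2 was 4.76 and 24.2 times higher, and Tagln, a contractile actin-binding protein, was 16.7 times higher in High F2, with 2 UMIs in the Fn1 cells of Low F2. The basal keratin Krt14 was at 0.460 and 0.431 of its level in cells without Fn1. Epcam was 2.35 and 3.51 times higher, and Col1a1, Col1a2 and Col3a1 had 0 UMIs in these cells. The median depth of these cells was 8976 UMIs in Low F2 and 12865 in High F2, against 7173 and 9636 in cells without Fn1. Whether any of them were pairs of cells in a droplet was not tested. Outside the F2 libraries, the Fn1 cell of High F6 had 930 UMIs in all, 5 of them Mgp and 4 Sparc. It also held UMIs of Col1a1 and Col1a2, and 0 UMIs of Krt5, Krt14, Krt8, Krt18, Epcam and Cdh1. The Fn1 cells of Low F6 and High M3 had 0 UMIs of Krt8 as well, but held UMIs of Krt5 and Krt14. The Fn1 cell of Low M3 had 29096 UMIs in all, against a median of 5218.5 in cells without Fn1. It held 42 UMIs of Krt8 and 77 of Krt18, 36.4 and 10.4 times the level in cells without Fn1. Its Krt14 was at 0.266 of that level, and it had 0 UMIs of Vim.

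**Figure D5:**
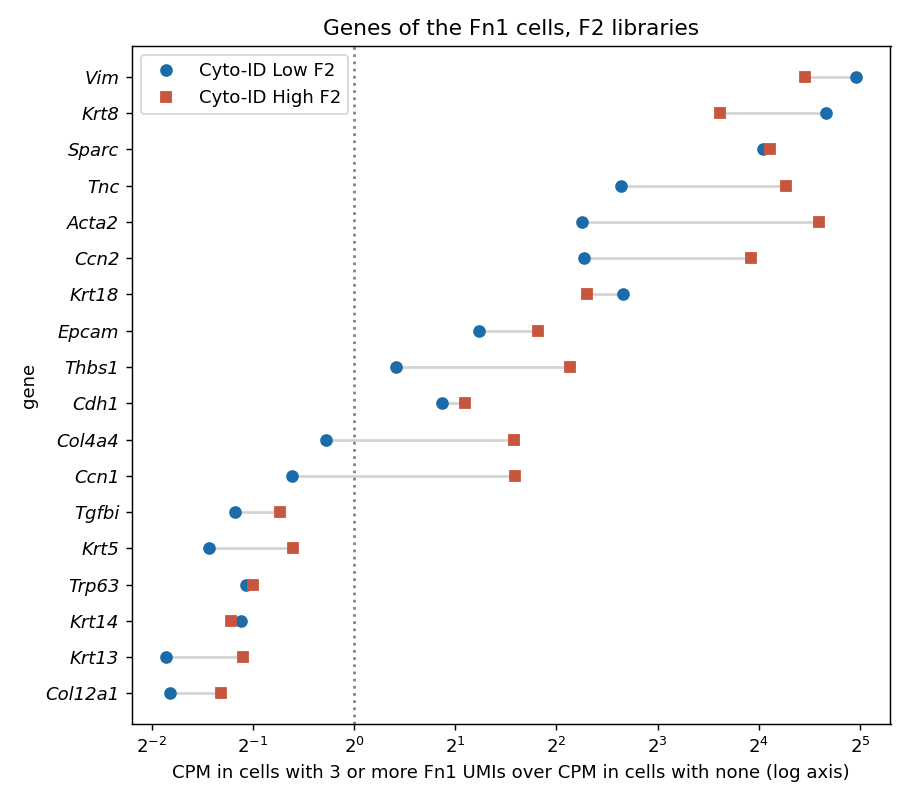
CPM in Krt13-low cells with 3 or more Fn1 UMIs over CPM in cells with none (x axis, log scale) for genes (y axis) with over 3 UMIs on each side in both F2 libraries. Both CPM are summed UMIs over summed totals, so deeper cells weigh more. Vim, Krt8, Sparc, Tnc and Ccn2 lie to the right in both (Tnc at 6.24 and 19.2), and Tgfbi, Krt14 and Col12a1 to the left.

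Cycling cells, with at least 2 UMIs of the proliferation genes after thinning, made up between 3.69% and 12.1% of thinned Krt13-low cells. Thbs1 was lower in cycling than in other Krt13-low cells in 6 of 6 libraries (mean over libraries 106 ± 58.5 against 153 ± 81.4 CPM after thinning, SD, n = 6), and so was Col12a1 (125 ± 53.8 against 171 ± 89.7 CPM). Tgfbi was lower in 5 of 6, with 16 to 124 UMIs in the cycling cells of a library. Thbs1 had 4 to 43 UMIs there and Col12a1 11 to 36. No direction is read for Tnc, Col4a4, Mgp, Ccn2 and Fn1, which had 0 to 10 UMIs there. Ccn1 was lower in 2 of 6, with 37.7 ± 29.3 against 38.7 ± 24.4 CPM and 1 to 15 UMIs in the cycling cells. No test was made, since the libraries are the only replicates and the genes were picked from these cells.

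The genes most like each member were ranked by Pearson correlation across cells within each library, among 3810 genes with at least 20 CPM in every library. Cells of a library share its preparation and base composition, values are sparse and the correlations are weak, so the names are a description only. The first 3 for Thbs1 included Tpm1 (median r over 6 libraries 0.11), a tropomyosin of the actin cytoskeleton, and Tmem176b (0.11). The first 3 for Tgfbi included Itgb4 (0.12), the hemidesmosomal integrin, and Gm42418 (0.11), and those for Col12a1 were Tpm1 (0.090), Golim4 (0.090) and Itgb1 (0.082). The other 6 members were too rare at 1000 UMIs. With all UMIs and depth removed, a choice made after the data were seen, Tnc, Ccn2 and Fn1 had Cald1, an actin-binding caldesmon, and Clu, the chaperone clusterin, among their first 3 genes. For Tnc the Cald1 correlation was 0.23. The first 3 for Mgp included Tmem176b (0.20) and Tmem176a (0.19).

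Genes around the members in their pathways were counted in the same test between the sorts, where at an unadjusted p under 0.05 2.76% of all genes were lower and 4.27% higher in High organoids. Of 14 receptors of the members that were tested, among them the syndecan Sdc4, Sdc1 and the thrombospondin receptor Cd47, 0 passed in either direction in limma, 0 had an unadjusted p under 0.05, and their median log2 difference was -0.32. Sdc4 was at 576 ± 75.7 CPM in Low organoids and 417 ± 122 CPM in High organoids, Sdc1 at 363 ± 40.7 and 368 ± 45.4 CPM and Cd47 at 196 ± 40.96 and 145 ± 35.7 CPM (SD, n = 3). Of 17 TGF-beta pathway genes 0 passed and 2 were lower at an unadjusted p under 0.05, with a median of -0.27. Their highest-level members were Pmepa1, a feedback inhibitor of the pathway, at 750 ± 138 and 480 ± 147 CPM, and the ligand Tgfb1 at 205 ± 20.04 and 136 ± 46.2 CPM. Of 17 YAP-TEAD pathway genes 0 passed and 1 was lower at that level, with a median of -0.30; the coactivator Wwtr1 (TAZ) was at 75.8 ± 6.68 and 56.0 ± 17.1 CPM. Of 18 SRF and immediate early genes 0 passed and 1 was higher at that level, and their median, -0.028, was near that of all genes; Jun was at 1867 ± 343 and 1627 ± 455 CPM.

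Matrix genes outside the 9 were counted in the same way. Of 16 basement membrane genes tested 0 passed in limma and 2 were higher at an unadjusted p under 0.05, with a median log2 difference of -0.22. Lamb3 and Lama3, laminin chains of epithelial basement membranes, were at 338 ± 87.9 and 223 ± 93.5 CPM in Low organoids and at 214 ± 103 and 138 ± 96.1 CPM in High organoids (SD, n = 3). Of 36 other matricellular and fibrillar genes only 12 had enough UMIs to be tested, 0 passed and 1 was higher at that level, with a median of 0.12. Ecm1, an extracellular matrix protein of squamous epithelia, was at 1931 ± 518 and 1278 ± 606 CPM. With the block 1 of the 12 passed, the calcium-binding matricellular gene Smoc2 (1.89 ± 0.374 and 5.79 ± 1.69 CPM, limma adjusted p = 0.040), which was higher in High organoids. Of 24 matrix enzymes and inhibitors 0 passed, while 1 was higher and 1 lower at that level, with a median of -0.17; with the block the gelatinase gene Mmp2 was called higher (group means 4.03 and 14.4 CPM, log2 difference 1.89, limma adjusted p = 0.014). Of 6 genes of gamma-carboxylation 0 passed and 0 reached that level, with a median of 0.037, and Vkorc1, the reductase that recycles vitamin K, was at 101 ± 14.9 and 104 ± 38.6 CPM.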

How the data were processed

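The authors deposited 1 table per library of natural log values, ln(1 + UMIs per 10000), a unit the values themselves show. Exponentiated values added up to 10000 in each cell, and 100% of them were multiples of the cell's lowest value (tolerance 1e-06), which gave back the UMIs. Cell Ranger 6.0.0, Seurat 4 and the build mm10/GRCm38 are named in the submitters' processing notes; the rest of the processing is not given in the sources used here. No doublets were removed here, and 0 to 10 barcodes were shared by any pair of libraries. Mean CPM over the Krt13-low cells was divided by each library's TMM factor (30% of log ratios and 5% of levels trimmed). It was compared as log2(CPM + 1), a scale that understates changes of low genes, with limma 3.58.1 (R 4.3.3, trend). The fit was also run on simulated libraries without differences between labels, which does not measure its power or error in these libraries. Deviations from group means over 9066 genes correlated between same-labelled libraries at 0.71 (F2), 0.61 (M3) and 0.14 (F6), all above 0.1, while Low F2 with High F6, of unlike labels, gave 0.23; the labels come from the sample titles. Members and lists were chosen with earlier results of these data known. Named genes were the members, their 3 closest genes, and from each list those past the threshold of 0.05 and the 3 with the highest levels; Smoc2, Mmp2 and the further genes of the Fn1 cells were chosen after their values were seen. Some genes that the rule names are not reported here. Proteins were not analysed here.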

Additional observations from a re-analysis of the deposited data

How the results depend on the processing

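No member was called in any of 17 alternatives of the comparison between the sorts, where the smallest adjusted p of a member ran from 0.065 to 0.999. The number of genes called was 27; it was 79 in the paired fit with the replicate block, 64 with the block on summed UMIs (added after the data were seen), 16 with at least 1000 genes per cell, 2 without the filter on low values, and 6 to 28 when libraries were left out in turn. Of the member log2 differences, 4 changed sign among the alternatives and 150 kept it. Tnc was 0.46 without Cyto-ID Low F2 and 0.43 without Cyto-ID High M3, in a range over left-out libraries of -0.64 to 0.46. Thbs1 was 0.082 without Cyto-ID High M3 (range -0.93 to 0.082) and Fn1 -0.024 without Cyto-ID Low M3 (range -0.024 to 1.17). Of the shares of cells, 4 changed sign and 95 did not: Fn1 was -0.051 percentage points at 2000 UMIs, -0.048 without Cyto-ID Low M3 and -0.17 without Cyto-ID High F2 (range -0.17 to 0.21), and Tnc 0.24 without Cyto-ID Low F2 (range -1.50 to 0.24). Members with shares lower without overlap numbered 2 (9.23% of all genes), but 1 at 2000 UMIs (10.1%), without thinning (0.136%) and with Krt13 below 2 (8.74%) or below 4 (8.29%), and 2 to 5 without single libraries (10.8% to 24.2%). Pairs found together numbered 3, and 8 without thinning, 8 in depth classes and 8 in depth classes without the cells with 3 or more Fn1 UMIs; it was 3 to 4 without single libraries, 2 in cells with no proliferation UMI and 4 in depth classes of cells with 0 Krt13. The cause of these changes was not tested. Fn1 had 13 to 16 UMIs in 4 libraries, deep Low M3 among them, so its levels there have little precision.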
